A study of Mus musculus with 8 samples.

Results

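The splicing and nuclear RNA-binding proteins described here are the genes of 5 families: the SR proteins (Srsf), the heterogeneous nuclear ribonucleoproteins (Hnrnp), the subunits of the U2-associated complexes SF3a and SF3b, the Snrp proteins of the small nuclear ribonucleoproteins without Snrpn, and the numbered RNA-binding motif genes (Rbm). They were chosen by gene symbol from the platform annotation, which gave 82 of 18193 genes, read by 233 of 45101 probe sets. A probe set is a group of short probes on the array that together read 1 stretch of a transcript. 20 further probe sets listed a matching symbol beside another gene or pseudogene and were left out.

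The samples came from mice of the line Hcrt JD218, which carry a bacterial artificial chromosome transgene for translating ribosome affinity purification, a method in which the ribosomes of 1 cell type carry a tag and are pulled down with their RNA. The 4 immunoprecipitates hold RNA bound to the tagged ribosomes of hypocretin neurons, a hypothalamic cell type known for its part in wakefulness. The 4 unbound fractions, left over from the same preparations, stand for the RNA of the dissected tissue, thalamus together with hypothalamus. Both fractions share the transgene, the mixed Fvb and c57/bl6j strain, both sexes, the adult age of 6 to 12 weeks, pools of 5 mice per sample, and amplification over more than 1 cycle from 20 ng of RNA. A difference between the fractions mixes cell type with ribosome binding, and in pooled tissue fewer cells of a type and less RNA per cell cannot be told apart.

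Splicing removes introns in the nucleus. Small nuclear ribonucleoproteins, each an RNA inside a ring of Sm proteins, find the ends of the intron and its branch point, where SF3a and SF3b hold the U2 particle. SR proteins bind exons and recruit this machinery, hnRNPs coat the transcript and often oppose exon use, and many Rbm proteins tune single exons. Neurons are known for a wide range of alternative exons, and transcripts of several SR and hnRNP genes are themselves alternatively spliced.

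Values are log2 levels, and 1 constant per group was subtracted so that the biotinylated hybridisation controls matched, because the groups had been normalized apart. A probe set was tested if it reached a linear value of 50, which is 5.64 on the log2 scale, on at least 4 of the 8 arrays. To be called it needed a limma adjusted p under 0.05 and a change of 2-fold or more. The minimum was reached by 33.6% to 34.8% of probe sets per immunoprecipitate array, against 40.5% to 40.9% per unbound array. The median tested probe set had a log2 fold change of -0.87, so each family is read beside that median and under other scales. Hcrt itself averaged 15.36 ± 0.17 in the immunoprecipitates, against 10.33 ± 0.55 in the unbound fractions (SD, n = 4 each). All 6 tested markers of hypocretin neurons were called higher.

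Most splicing and nuclear RNA-binding genes had lower levels in the ribosome-bound RNA of hypocretin neurons than in the unbound RNA, as most genes on these arrays did. Of the 169 member probe sets tested, 4 were called higher and 90 lower, against 4.88% and 45.1% of all 17865 probe sets tested. Their median log2 fold change was -1.08. The families differed in their medians: -1.29 for Rbm genes, -1.28 for hnRNPs, -0.97 for SR proteins, -0.78 for SF3a and SF3b and -0.64 for Snrp proteins. Set against the median of all tested probe sets, the Snrp median lay 0.24 above and the SF3 median 0.10 above, the SR median 0.10 below, and the hnRNP and Rbm medians 0.40 and 0.42 below. After quantile normalization these distances were 0.35 for Snrp, 0.034 for SF3, -0.28 for SR, -0.73 for hnRNP and -0.41 for Rbm. For 115 of the 169 probe sets every array of 1 fraction lay above every array of the other, beside 56.9% of all tested.

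By gene, with each gene represented by its tested probe set of highest mean, 74 genes were tested. 3 were called higher and 37 lower, against 4.74% and 44.2% of 10398 genes. 64 of the 233 probe sets did not reach the minimum, and 12 of the 169 tested passed it through the unbound fraction alone, so the lower calls of those 12 were fixed by the filter. 1 probe set, that of Rbm45, passed it through the immunoprecipitates alone, so its higher direction was fixed in the same way. 8 genes had no tested probe set: Rbm12b2, Rbm19, Rbm38, Rbm44, Rbm46, Rbm47 and the opposite-strand genes Rbm3os and Rbm46os.

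**Figure D1:**
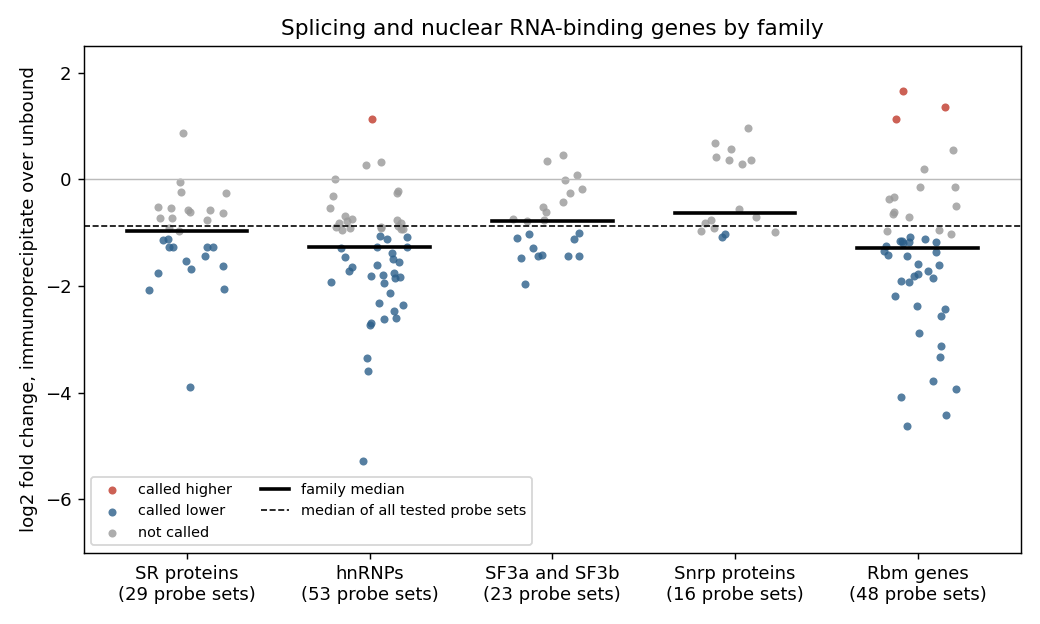
Log2 fold change, immunoprecipitate over unbound (vertical axis), of the 169 tested member probe sets by family (horizontal axis). Each point is a probe set, coloured by its call, black bars are family medians and the dashed line is the median of all tested probe sets, -0.87. The Rbm and hnRNP medians lie below that line, the Snrp median above it, and 4 points are called higher.

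The SR proteins, which carry stretches rich in serine and arginine, had 14 of 29 tested probe sets called lower and 0 higher by limma, with 1 higher at an unadjusted p below 0.05. By gene, 4 of 10 were lower: Srsf10, Srsf4, Srsf6 and Srsf11. The shares lower, 48.3% of SR probe sets and 40.0% of SR genes, were near the 45.1% and 44.2% of all tested. Srsf10, which can repress splicing when it loses its phosphates, had levels of 9.42, 9.38, 9.23 and 8.98 in the immunoprecipitates, against 11.67, 10.70, 10.68 and 10.68 in the unbound fractions. Its log2 fold change was -1.68 ± 0.26 (SE, limma adjusted p = 0.000351), or 3.20-fold lower. The fractions did not overlap, and unbound replicate 1 stood above the rest.

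Srsf4, a large SR protein, had 9.31, 9.21, 9.53 and 10.24 in the immunoprecipitates and 11.34, 10.63, 10.70 and 11.75 in the unbound fractions, a log2 fold change of -1.53 ± 0.32 (SE, limma adjusted p = 0.00188). Replicate 4 was highest in both fractions, and the fractions did not overlap. Srsf6, a regulator of exon choice, had 10.38, 9.52, 9.93 and 9.77 against 11.46, 11.52, 10.98 and 11.38, a log2 fold change of -1.44 ± 0.23 (SE, limma adjusted p = 0.000384). Srsf11 had 10.64, 10.46, 10.46 and 10.39 against 11.92, 11.64, 11.37 and 12.11, or 2.41-fold lower (limma adjusted p = 0.000318). For both genes all 4 immunoprecipitate arrays lay below all unbound ones.

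The SR genes with the highest mean levels missed the 2-fold threshold. Srsf1, the founding splicing factor of the family, had 12.79, 12.42, 12.34 and 12.61 in the immunoprecipitates and 13.16, 13.39, 12.90 and 13.02 in the unbound fractions (log2 change -0.57 ± 0.16 SE, limma adjusted p = 0.0108). Srsf3, the smallest SR protein, had 12.32, 11.55, 11.35 and 11.89 against 13.03, 12.50, 12.44 and 13.01 (log2 change -0.97 ± 0.24 SE, limma adjusted p = 0.00545). It passed 2-fold as the mean of its probe sets (-1.15), and without immunoprecipitate replicate 1 (-1.15) or 4 (-1.01) and without unbound replicate 2 (-1.05) or 3 (-1.07). The other SR genes not called were Srsf2, Srsf5, Srsf9 and Srsf12. Some further probe sets of uncalled SR genes were called lower. They were 1428100_at of Srsf1 (-1.62), 1452439_s_at of Srsf2 (-1.76) and all further tested ones of Srsf3 (-1.27 to -1.13). After median centring 1 SR probe set was higher and 3 lower, beside 17.6% and 23.7% of all tested, and Srsf10, Srsf4, Srsf6 and Srsf11 then missed the call with values of -0.87 to -0.46. They also missed it after quantile normalization, with values of -0.95 to -0.68.

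The hnRNPs had 31 of 53 probe sets lower and 1 higher, and 10 of 19 genes lower. The shares lower were 58.5% and 52.6%, beside 45.1% and 44.2% of all tested. Hnrnpu, a nuclear matrix protein that binds chromatin-associated RNA, had 11.56, 10.78, 10.67 and 10.84 in the immunoprecipitates, against 13.07, 12.84, 12.72 and 12.96 in the unbound fractions. It was 3.82-fold lower (log2 change -1.93 ± 0.21 SE, limma adjusted p = 4.78e-05). The fractions were far apart on every array, although the gene overlaps Cox20 in the annotation.

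Hnrnph1, which binds runs of G, had 12.12, 10.52, 10.57 and 11.23 in the immunoprecipitates and 13.77, 12.38, 11.96 and 13.62 in the unbound fractions, a log2 fold change of -1.82 ± 0.47 (SE, limma adjusted p = 0.00663). Here the fractions overlapped, since immunoprecipitate replicate 1 lay above unbound replicate 3, yet each preparation had the lower value in its immunoprecipitate. Hnrnpll, known in T cells for exon choice in the CD45 gene, had 10.46, 10.21, 10.02 and 9.54 against 12.07, 11.89, 11.67 and 11.67 (3.40-fold lower, limma adjusted p = 0.000108). Hnrnpul2, a relative of Hnrnpu, had 10.37, 10.19, 9.96 and 10.79 against 12.28, 11.73, 11.29 and 12.88 (3.29-fold lower, limma adjusted p = 0.00124). Neither gene overlapped between the fractions. Hnrnpa2b1 and Hnrnpdl were also lower, by 2.09- and 2.44-fold, as were Hnrnpa0, Hnrnpf, Hnrnph2 and Hnrnpm.

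The 2 hnRNP genes of highest mean level, Hnrnpk and Hnrnpab, were not called. Hnrnpk, which binds runs of C, had 14.85, 14.11, 14.09 and 14.11 in the immunoprecipitates and 15.29, 15.00, 14.87 and 14.99 in the unbound fractions (log2 change -0.75 ± 0.18 SE, limma adjusted p = 0.00506, under 2-fold). Hnrnpab had 14.10, 13.97, 13.95 and 13.79 against 14.23, 14.26, 14.18 and 14.02, with overlapping fractions (log2 change -0.22 ± 0.12 SE, limma adjusted p = 0.132). Also not called were Hnrnpa1, Hnrnpc, Hnrnpd, Hnrnph3, Hnrnpl, Hnrnpr and Hnrnpul1. Some further probe sets of uncalled hnRNP genes were called lower. Among them were 1436549_a_at of Hnrnpa1 (-1.81), 1418693_at of Hnrnpc (-1.61) and 1448176_a_at of Hnrnpk (-1.12). With its probe sets averaged, Hnrnpd was called lower (-2.06, limma adjusted p = 7.4e-05), and so was Hnrnpr (-2.41, limma adjusted p = 3.11e-05). Hnrnpr also passed 2-fold without immunoprecipitate replicate 1 (-1.06). After median centring 3 hnRNP probe sets were higher and 14 lower, and after quantile normalization 2 and 18, beside 17.3% and 20.8% of all tested. By gene, of the 10 lower, Hnrnpu alone was still called after median centring (-1.12), while Hnrnph1 (-1.01, limma adjusted p = 0.0847), Hnrnpll (-0.95), Hnrnpul2 (-0.91), Hnrnpdl (-0.48) and Hnrnpa2b1 (-0.25) missed the call. After quantile normalization Hnrnpa0, Hnrnpa2b1 and Hnrnpm missed it and the other 7 were called.

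SF3a and SF3b, the complexes that seat the U2 particle on the branch point, had 11 of 23 probe sets lower and 0 higher by limma, with 0 higher and 14 lower at an unadjusted p below 0.05. By gene, 4 of 9 were lower. The shares lower, 47.8% of SF3 probe sets and 44.4% of SF3 genes, were near the 45.1% and 44.2% of all tested. Sf3b1, the large subunit that clamps the branch point, had 11.01, 9.96, 10.32 and 9.93 in the immunoprecipitates, against 11.80, 11.43, 11.48 and 12.29 in the unbound fractions. It was 2.72-fold lower (log2 change -1.44 ± 0.29 SE, limma adjusted p = 0.00149), with no overlap, and its 4 tested probe sets were all called lower.

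All 3 subunits of SF3a were called lower, each by little more than the threshold. Sf3a3 had 8.77, 9.14, 9.04 and 8.70 in the immunoprecipitates and 9.79, 9.94, 10.26 and 10.09 in the unbound fractions (log2 change -1.11 ± 0.21 SE, limma adjusted p = 0.00107). Sf3a1 had 6.83, 7.25, 7.67 and 7.27 against 8.10, 8.44, 8.42 and 8.17 (-1.03 ± 0.25 SE). Sf3a2 had 9.68, 9.94, 9.99 and 9.86 against 10.73, 10.99, 11.08 and 10.71 (-1.01 ± 0.18 SE), the member probe set nearest to 2-fold among those called. For all 3 genes the fractions did not overlap. Sf3a1 and Sf3a2 fell short of 2-fold without immunoprecipitate replicate 1 (-0.89 and -0.94), unbound replicate 2 (-0.98 and -0.97) or unbound replicate 3 (-0.98 and -0.94), and Sf3a2 also on the deposited scale (-0.98). Just outside the threshold lay a probe set of Snrpb at -0.98.

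The remaining SF3b subunits were not called by their probe set of highest mean. Further probe sets of Sf3b2, 1456040_at (-1.28) and 1459836_x_at (-1.47), were called lower. Sf3b2, which contacts RNA near the branch point, had 12.48, 12.48, 12.17 and 12.29 in the immunoprecipitates and 13.03, 13.26, 13.35 and 12.78 in the unbound fractions (log2 change -0.75 ± 0.16 SE, limma adjusted p = 0.00262, under 2-fold). Sf3b6, the small subunit that lies at the branch point adenosine, had 12.63, 12.09, 12.20 and 11.54 against 12.29, 12.67, 12.45 and 11.75 (-0.18 ± 0.26 SE, limma adjusted p = 0.575), with overlapping fractions. Sf3b3, Sf3b4 and Sf3b5 were the others. After median centring or quantile normalization, 1 SF3 probe set was higher and 0 were lower.

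Most promoter windows of this family held a short motif. In the 250 bases before the start that the RefSeq promoter table uses for each gene, the letters CCGGAAG, the core bound by ETS factors, or their reverse complement CTTCCGG were found in 6 of the 7 SF3 genes with a window, against 15.8% of the 8490 tested genes with one. The share was 3 of 7 for Snrp genes, 3 of 10 for SR genes, 2 of 17 for hnRNPs and 5 of 29 for Rbm genes, and 19 of 70 members in all. Among tested members it was 7 of 32 called lower and 11 of 32 not called lower. These are matches of letters with no test, and they do not show a bound site. The windows printed here come from RefSeq on GRCm38.p6, each read 5′ to 3′ on the gene's own strand with the motif in capitals. They are shown because both the SF3a genes, called lower, and SF3b or Snrp genes, not called, carry it. Sf3b1, also called lower, had no match, and Sf3b4 and Sf3b5 had no window. The window of Sf3b3, counted as a match, is not printed. Sf3b2 had 2 windows in the table, of which 1 is shown. Sf3b6 and Snrpb2 each hold 2 matches. The window of Snrpc, counted as a match, is not printed because its start in the promoter table lies inside the annotated gene, and so does the motif.
Sf3a1, chr11:4160254-4160353, plus strand: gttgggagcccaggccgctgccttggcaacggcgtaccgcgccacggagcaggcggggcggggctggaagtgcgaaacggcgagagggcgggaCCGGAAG
Sf3a2, chr10:80798635-80798734, plus strand: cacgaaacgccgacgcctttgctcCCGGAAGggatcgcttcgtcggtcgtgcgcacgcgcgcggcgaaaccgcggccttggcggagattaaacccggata
Sf3a3, chr4:124714761-124714860, plus strand: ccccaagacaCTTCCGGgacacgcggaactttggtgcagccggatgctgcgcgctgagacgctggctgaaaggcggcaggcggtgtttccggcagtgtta
Sf3b2, chr19:5295458-5295557, minus strand: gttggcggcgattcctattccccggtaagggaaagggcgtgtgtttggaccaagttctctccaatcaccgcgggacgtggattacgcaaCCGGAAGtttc
Sf3b6, chr12:4817508-4817607, plus strand: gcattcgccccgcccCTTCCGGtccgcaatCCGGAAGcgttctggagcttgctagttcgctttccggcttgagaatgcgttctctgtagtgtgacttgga
Snrpb2, chr2:143062969-143063068, plus strand: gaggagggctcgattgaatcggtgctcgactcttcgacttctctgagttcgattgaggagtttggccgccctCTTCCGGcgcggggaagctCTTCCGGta
Snrpg, chr6:86371390-86371539, plus strand: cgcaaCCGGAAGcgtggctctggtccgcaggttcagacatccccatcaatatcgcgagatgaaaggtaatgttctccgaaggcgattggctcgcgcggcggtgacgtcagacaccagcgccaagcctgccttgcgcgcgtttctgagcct
Other motifs were counted in the same 70 member windows and 8490 windows of tested genes. The CCAAT box (CCAAT) was in 32 members and 40.2% of tested genes, the GC box (GGGCGG) in 38 and 65.7%, the TATA box (TATAAA) in 7 and 7.7%, and the E box (CACGTG) in 7 and 10.4%, with both strands searched.

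The Snrp proteins, which form the protein part of the spliceosome's RNA particles, had 2 of 16 probe sets called lower and 0 higher by limma, with 3 higher at an unadjusted p below 0.05. The share called lower was 12.5%, beside 45.1% of all tested. Without the fold threshold 3 were higher and 7 lower at the adjusted level, beside 8.33% and 54.6% of all tested. Their 8 genes had a median log2 fold change of 0.32, where all genes had -0.85. Among the Sm ring proteins, Snrpe had 14.37, 14.09, 14.12 and 14.17 in the immunoprecipitates, against 13.73, 13.90, 13.88 and 13.80 in the unbound fractions, a log2 fold change of 0.36 ± 0.11 (SE, limma adjusted p = 0.0194). Snrpg had 14.15, 14.06, 14.10 and 14.13 against 13.88, 13.95, 13.77 and 13.69 (0.29 ± 0.11 SE, limma adjusted p = 0.0412). In both the immunoprecipitate arrays were all higher, by much less than 2-fold.

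Snrpf, another Sm protein named after its values were seen, had 12.62, 11.91, 12.20 and 12.56 in the immunoprecipitates and 11.39, 11.36, 11.36 and 11.33 in the unbound fractions. Its log2 fold change of 0.97 ± 0.18 (SE, limma adjusted p = 0.00116) lay just under 2-fold. It was called higher after median centring (1.78) and quantile normalization (1.46), and gave -0.996 on the poly-A controls, not called. Snrpd3 had 11.74, 12.23, 12.04 and 11.34 against 11.53, 11.66, 11.81 and 10.93 (0.36 ± 0.25 SE, limma adjusted p = 0.24), with overlapping fractions. Snrpb, the Sm protein of which a second probe set lay nearest to 2-fold outside it, had 11.35, 11.66, 11.14 and 10.95 against 11.76, 12.61, 12.52 and 11.87 (-0.91 ± 0.25 SE, limma adjusted p = 0.00825). The Sm proteins therefore did not share 1 direction on the scale of the biotinylated controls.

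Of the proteins that belong to 1 particle, Snrpa1 of the U2 particle was called lower. It had 11.71, 11.21, 11.39 and 11.48 in the immunoprecipitates, against 12.59, 12.69, 12.47 and 12.36 in the unbound fractions, a log2 fold change of -1.08 ± 0.16 (SE, limma adjusted p = 0.00028). As the mean of its probe sets it gave -0.80. Its U2 partner Snrpb2 had 10.90, 10.20, 10.54 and 10.85 against 10.40, 10.44, 9.66 and 10.35 (0.41 ± 0.25 SE, limma adjusted p = 0.166), with overlapping fractions. Snrpc of the U1 particle was not called.

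The count of lower Snrp probe sets was 5 without immunoprecipitate replicate 2 or unbound replicate 1 and 4 without unbound replicate 3. After median centring, 7 of 16 were higher and 0 lower, among them Snrpe at 1.17, Snrpg at 1.10, Snrpb2 at 1.22 and Snrpd3 at 1.17. After quantile normalization 4 were higher and 0 lower. On the poly-A spike controls, 15 were lower and 0 higher, beside 94.2% and 0.700% of all tested, and Snrpe and Snrpg turned to -1.61 and -1.68. The family median lay above that of all tested probe sets by 0.24 on the scales that add a constant and by 0.35 after quantile normalization. Snrpe and Snrpg are read by probe sets of a type that can also bind transcripts of related genes. So are other members, among them Snrpb, Sf3a2, Sf3b5, Srsf2, Srsf6, Hnrnpu and Rbm7. Sf3b2, Hnrnpa1, Hnrnpab, Hnrnpf and Rbm14 are represented by probe sets marked _x_at, a type that can also bind other transcripts. The other tested probe set of Snrpg, 1448357_at, is of neither type and gave 0.57, not called.

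**Figure D2:**
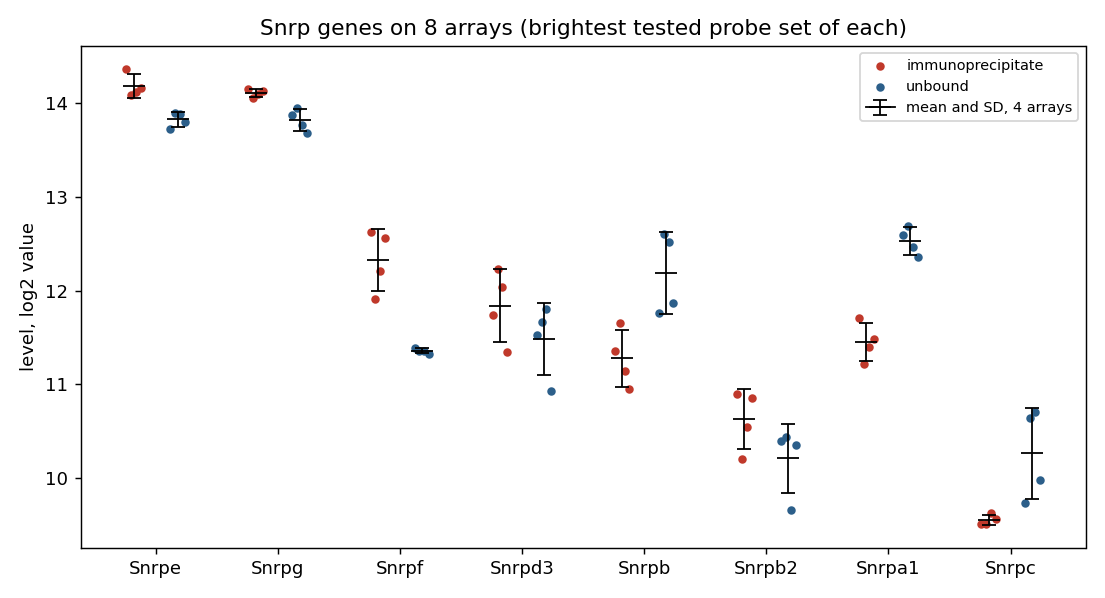
Log2 level (vertical axis) of the 8 Snrp genes (horizontal axis) on the 4 immunoprecipitate arrays, left, and the 4 unbound arrays, right, with mean and SD. Snrpe, Snrpg and Snrpf lie higher on all immunoprecipitate arrays, Snrpa1, Snrpb and Snrpc lie lower, and Snrpd3 and Snrpb2 overlap.

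**Figure D3:**
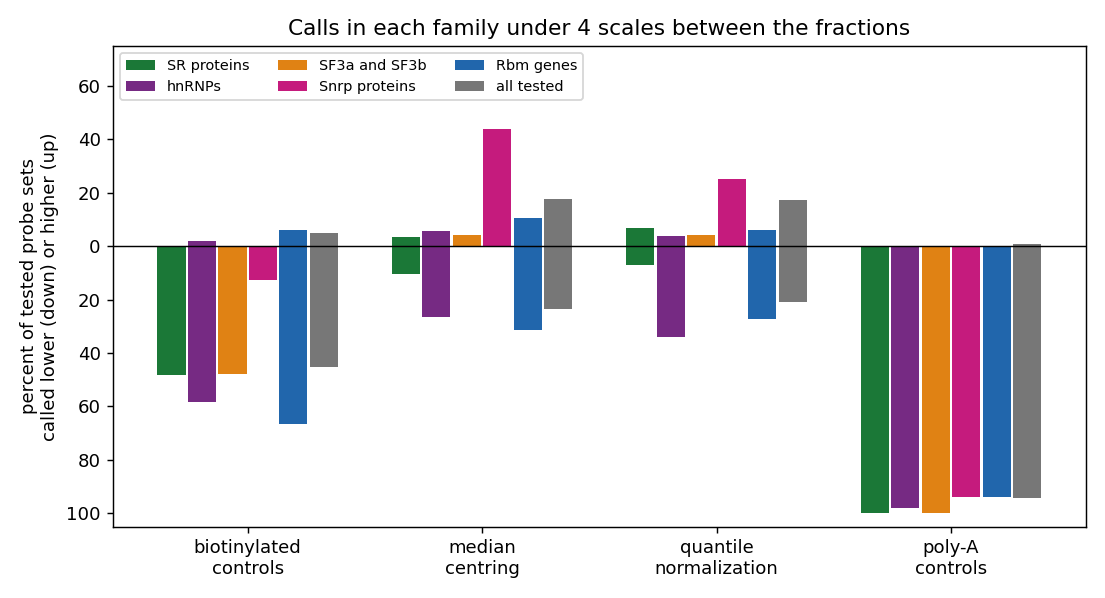
Percent of tested probe sets called higher (up) or lower (down) in each family and among all tested, under 4 ways of setting the scale between the fractions. Snrp bars reach 12.5% lower on the biotinylated controls, 43.8% higher after median centring, 25.0% higher after quantile normalization and 93.8% lower on the poly-A controls.

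The Rbm genes, which share an RNA recognition motif but differ widely in role, had 32 of 48 probe sets lower and 3 higher, and 18 of 28 genes lower and 3 higher. The shares lower were 66.7% and 64.3%, beside 45.1% and 44.2% of all tested. The shares higher were 6.25% and 10.7%, beside 4.88% and 4.74%. The 3 higher genes were faint in the unbound fraction. Rbm15b, an adaptor of the complex that methylates adenosine in RNA, had 6.50, 6.92, 6.88 and 7.45 in the immunoprecipitates, against 5.13, 4.99, 5.09 and 5.97 in the unbound fractions. It was at least 2.31-fold higher (fitted log2 fold change 1.65 ± 0.30 SE, limma adjusted p = 0.00094), with unbound values under the minimum raised to it. The fractions did not overlap, and the gene overlaps Dcaf1.

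Rbm11, a tissue-restricted splicing regulator, had 7.07, 7.09, 7.34 and 7.14 in the immunoprecipitates and 5.71, 5.82, 6.50 and 5.18 in the unbound fractions. It was at least 2.36-fold higher (limma adjusted p = 0.00244). Rbm45, a protein of the developing nervous system, had 6.62, 6.28, 6.52 and 6.74 against 5.25, 5.40, 5.57 and 5.38, under the minimum on all 4 unbound arrays. Its bound is at least 1.85-fold higher, below the 2-fold of its call, and since it was tested through the immunoprecipitates alone its call is no more than a description. Both genes were free of overlap between fractions. On the poly-A controls Rbm15b, Rbm11 and Rbm45 gave -0.32, -0.61 and -0.83.

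At the other end, Rbm20, known in heart for the splicing of titin, had 3.84, 3.45, 3.65 and 3.62 in the immunoprecipitates, all under the minimum, against 7.10, 6.48, 6.31 and 7.18 in the unbound fractions. It was at least 2.19-fold lower (limma adjusted p = 9.11e-06). Since Rbm20 was tested through the unbound fraction alone, its lower direction was fixed by the filter and its call is no more than a description. Rbm48, which acts in the splicing of minor introns, had 8.02, 7.52, 6.68 and 7.37 against 9.84, 9.65, 9.81 and 10.01, or 5.39-fold lower (log2 change -2.43 ± 0.29 SE, limma adjusted p = 7.85e-05). Both genes were lower on every array.

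Rbm26, a partner of nuclear RNA decay, had 7.06, 6.64, 6.62 and 6.90 in the immunoprecipitates and 9.15, 9.0, 8.26 and 9.59 in the unbound fractions (4.58-fold lower, limma adjusted p = 0.000171). Rbm7, an RNA-binding subunit of the complex that brings nuclear transcripts to the exosome, had 10.64, 9.70, 10.03 and 10.16 against 11.98, 12.30, 11.89 and 12.08 (3.80-fold lower, limma adjusted p = 6.01e-05). Neither overlapped. Rbm5, a regulator of exon choice in apoptosis genes, was 3.29-fold lower, Rbm33 3.05-fold, Rbm12 2.58-fold and Rbm39, a partner of U2AF, 2.11-fold. Rbm39 missed 2-fold without immunoprecipitate replicate 3 (-0.94). After median centring Rbm5 (-0.91), Rbm33 (-0.80), Rbm12 (-0.56) and Rbm39 (-0.27) missed the call, and of the 18 lower genes only Rbm7, Rbm12b1, Rbm20, Rbm25, Rbm26 and Rbm48 were still called. After quantile normalization only Rbm5, Rbm7, Rbm20, Rbm26 and Rbm48 were. Rbm4b, Rbm6, Rbm12b1, Rbm14, Rbm15, Rbm24, Rbm25, Rbm27, Rbm28 and Rbm42 were also lower.

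The Rbm genes of highest mean level were not called. Rbm8a, the Y14 subunit of the exon junction complex that stays on spliced mRNA until it is translated, had 12.64, 12.57, 12.80 and 12.74 in the immunoprecipitates and 12.31, 12.15, 12.10 and 12.02 in the unbound fractions. All 4 immunoprecipitate arrays were higher (log2 change 0.55 ± 0.14 SE, limma adjusted p = 0.00584, under 2-fold). Rbm17, a factor of the second splicing step, had 11.41, 10.95, 11.17 and 11.50 against 11.87, 10.63, 10.72 and 11.06 (0.19 ± 0.28 SE, limma adjusted p = 0.571), with overlapping fractions. After median centring both were called higher, at 1.36 and 1.00, and on the poly-A controls they gave -1.42 and -1.78. Rbm18, Rbm22, Rbm34, Rbm41 and Rbm43 were the others not called, although Rbm18 was lower with its probe sets averaged (-1.91, limma adjusted p = 9.95e-05).

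Probe sets of 1 gene did not always give the same fold. This comparison takes each further probe set minus the brightest of its gene within an array, so any constant between fractions cancels. Quantile normalization is no constant: it gave 24 called pairs, and 6 of the 21 described here lost their call under it. Of 95 member pairs, 21 differed between the fractions by at least 1 on the log2 scale at a limma adjusted p below 0.05, in 16 genes, against 19.5% of 5969 pairs of all genes. That share, 22.1%, is near the background. In 18 of the 21 the dimmer probe set had the lower fold (85.7%), beside 59.4% of 1165 called pairs of all genes. In 8 of the 21 the dimmer probe set was under the minimum on all 4 immunoprecipitate arrays and had been tested through the unbound fraction alone. With both probe sets at the minimum on all 8 arrays, 9 of 66 pairs were called, a share near the 531 of 4070 pairs of all genes. 7 of those 9 were lower, beside 249 of the 531. Where a gene had more than 1 tested probe set, as 43 did, all agreed in their call for 20 and opposite calls occurred for 0. Of all 4000 genes with several tested probe sets, 2624 agreed in their call and 44 had opposite calls. In SF3a and SF3b, 0 of 14 pairs differed by limma, with 1 higher and 1 lower at an unadjusted p below 0.05.

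Among pairs measured on all arrays, Hnrnpd, which binds AU-rich stretches of mRNA, differed most. Its brightest probe set, 1425142_a_at, had 10.88, 10.64, 10.26 and 9.98 in the immunoprecipitates and 11.27, 11.26, 11.37 and 10.92 in the unbound fractions, a log2 fold change of -0.76. The probe set 1457568_at had 9.29, 8.27, 8.16 and 8.27 against 11.57, 11.05, 10.80 and 11.49, a log2 fold change of -2.73. The difference was -1.97 ± 0.30 (SE, limma adjusted p = 0.00208), and a further probe set, 1458273_at, gave -1.93. All 3 probe sets were free of overlap between fractions, but not equally far apart.

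Hnrnpdl, its close relative, showed the like: 1424251_a_at had 12.80, 12.52, 12.49 and 11.97 in the immunoprecipitates and 13.95, 13.83, 13.81 and 13.33 in the unbound fractions. 1456698_s_at had 11.56, 10.71, 10.52 and 10.16 against 13.45, 13.37, 13.29 and 12.74, so the log2 fold changes were -1.29 and -2.48. The difference was -1.19 ± 0.21 (SE, limma adjusted p = 0.00423), and 1428224_at gave -1.34. After quantile normalization neither was called, at -0.98 for 1456698_s_at and -0.73 for 1428224_at (limma adjusted p = 0.0973). Hnrnpa2b1, which binds mRNAs carried into neuronal processes, had a difference of -1.26 ± 0.28 (SE, limma adjusted p = 0.0127) between folds of -2.32 and -1.06. That difference was -0.98 with both arrays of replicate 4 left out and -0.71 after quantile normalization (limma adjusted p = 0.0817), and was not called in either.

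In 3 pairs the dimmer probe set had the higher fold. For Hnrnpab, 1426114_at had 12.67, 11.43, 10.98 and 11.91 in the immunoprecipitates, against 10.90, 10.59, 10.51 and 10.44 in the unbound fractions. It is the 1 hnRNP probe set called higher, at 2.20-fold (log2 change 1.14 ± 0.32 SE, limma adjusted p = 0.0112), while the brightest gave -0.22, a difference of 1.35 ± 0.33 (SE, limma adjusted p = 0.0175). The pair lost its call without both arrays of replicate 4 (1.24, limma adjusted p = 0.0843). The call of 1426114_at was lost without immunoprecipitate replicate 1 (0.83) and without both arrays of replicate 4 (1.03, limma adjusted p = 0.0611), and it gave -0.83 on the poly-A controls. Hnrnpab overlaps Phykpl.

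For Srsf10 the pair differed by 1.62 ± 0.40 (SE, limma adjusted p = 0.0182), since 1418527_a_at had 6.14, 7.23, 7.64 and 7.66 against 7.72, 7.23, 6.85 and 7.10. It lost its call without immunoprecipitate replicate 3 (limma adjusted p = 0.0565) or unbound replicate 1 (limma adjusted p = 0.0507), or with both arrays of replicate 4 left out (limma adjusted p = 0.0726). Srsf2, the SR protein known as SC35, had pairs in both directions, with differences of 1.41 for 1427816_at and -1.21 for 1452439_s_at. The second was not called with the replicate block (limma adjusted p = 0.0524) or without any 1 of immunoprecipitate replicates 2, 3 and 4 and unbound replicates 2 and 3 (limma adjusted p 0.051 to 0.0886). Nor was it called without both arrays of replicate 4 (limma adjusted p = 0.0603) or after quantile normalization (-0.81, limma adjusted p = 0.122). Srsf2 overlaps Mfsd11.

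The Snrp pairs reached the 2 genes above whose brightest probe sets were not called. Snrpd3 gave 0.36 with its brightest probe set and -1.02 with 1449629_s_at, which had 9.10, 9.87, 9.86 and 9.77 in the immunoprecipitates and 10.64, 10.61, 10.61 and 10.84 in the unbound fractions. The difference was -1.38 ± 0.32 (SE, limma adjusted p = 0.0139). Snrpb2 gave 0.41 and, with 1452131_at, -0.98, a difference of -1.39 ± 0.34 (SE, limma adjusted p = 0.0173). After quantile normalization the Snrpb2 pair was not called (-0.80, limma adjusted p = 0.102).

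The widest differences involved probe sets at the bottom of the range in the immunoprecipitates, where the size depends on that bottom. Hnrnpr, a partner of mRNA in neuronal processes, had 1427129_a_at at 11.77, 11.58, 11.15 and 11.35 in the immunoprecipitates and 12.42, 12.47, 12.39 and 12.40 in the unbound fractions. Its 1438807_at had 2.21, 2.20, 2.20 and 2.20 against 7.89, 7.40, 8.13 and 6.52, or at least 3.61-fold lower. 1429232_at of the same gene had 6.86, 5.33, 4.29 and 4.78 against 9.17, 9.19, 8.85 and 8.40, at least 7.79-fold lower. Rbm33 was at least 7.82-fold lower with 1435391_at, Rbm12 at least 3.23-fold with 1416929_at, Srsf11 at least 3.03-fold with 1430077_at, Hnrnph1 at least 2.41-fold with 1437267_x_at, Rbm18 at least 2.11-fold with 1458182_at and Rbm39 at least 1.97-fold with 1443988_at. Rbm5 had 2 such probe sets, 1438069_a_at at least 4.25-fold and 1452187_at at least 1.58-fold lower. The bounds of 1452187_at, 1443988_at and 1437267_x_at lie under the folds of their brightest probe sets, 3.29, 2.11 and 3.54. With the minimum applied, those pairs do not show that the dimmer probe set fell more. The Hnrnph1 pair lost its call without any 1 of immunoprecipitate replicates 1, 3 and 4 and unbound replicates 2 and 3, with limma adjusted p of 0.0559 to 0.0801, and after quantile normalization it gave -0.62 in place of -1.53 (limma adjusted p = 0.336). The Rbm5 pair of 1438069_a_at lost it without any 1 of immunoprecipitate replicates 2, 3 and 4 and unbound replicates 2 and 4, with limma adjusted p of 0.0538 to 0.0677, and without both arrays of replicate 4 (limma adjusted p = 0.118). The annotation used here gives no positions of probe sets in transcripts, so which exon or intron they read is not given.

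**Figure D4:**
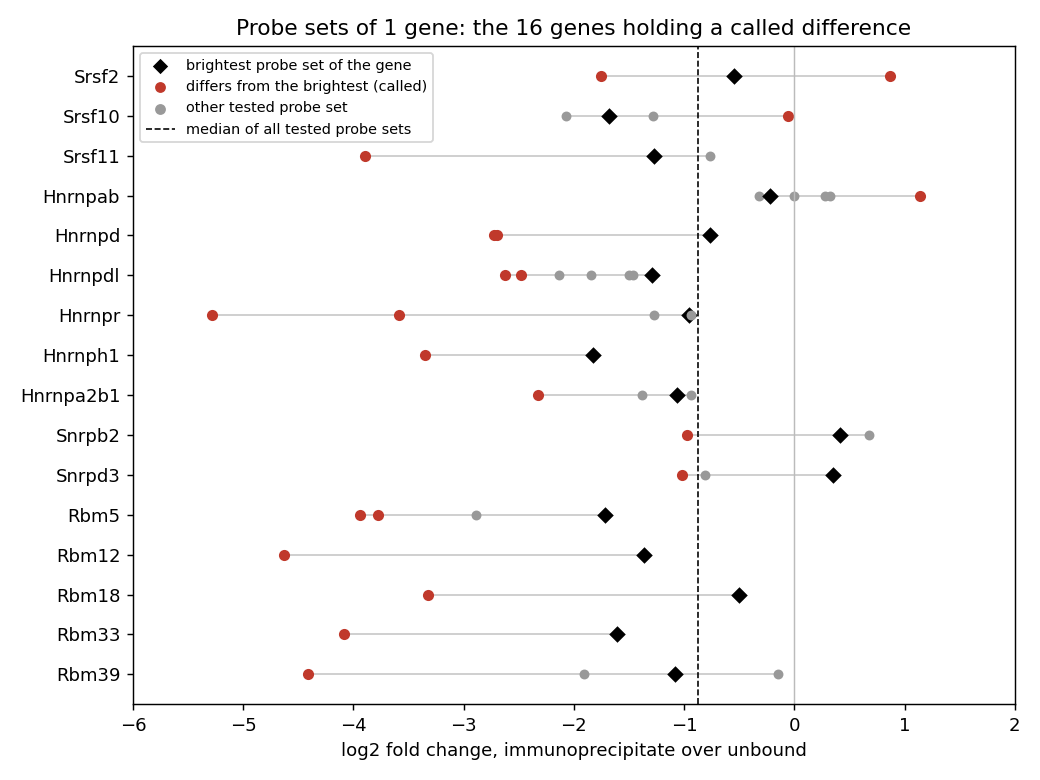
Log2 fold change, immunoprecipitate over unbound (horizontal axis), of every tested probe set in the 16 genes with a called within-gene difference (vertical axis). Diamonds are the brightest probe set of a gene, red points differ from it and grey points do not. 18 of the 21 red points lie to the left of their diamond. For 8 of the 21 the dimmer probe set was under the minimum on all 4 immunoprecipitate arrays.

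Sf3b5 varied more between preparations than between fractions. This SF3b subunit, named after its values were seen, had 11.47, 12.47, 12.18 and 11.10 in the immunoprecipitates and 11.04, 12.80, 13.12 and 10.33 in the unbound fractions (log2 change -0.021 ± 0.59 SE, limma adjusted p = 0.978). Replicates 2 and 3 were above 1 and 4 in both fractions. Its second probe set, 1451185_at, had the same order, with 9.01, 10.38, 10.06 and 8.06 against 8.21, 10.13, 10.38 and 7.40.

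The opposite pattern appeared in Hnrnph1, where replicates 1 and 4 were above 2 and 3 in both fractions. The array controls for RNA integrity varied between preparations and between fractions. The 3′ minus 5′ signal of Gapdh was 2.31, 2.12, 2.27 and 4.50 in the immunoprecipitates and 2.08, 1.97, 1.94 and 3.36 in the unbound fractions, highest in replicate 4 of each fraction and higher in the immunoprecipitate of all 4 preparations. For Actb it was 4.05, 3.14, 3.53 and 4.11 against 3.01, 3.29, 3.45 and 3.80, higher in the immunoprecipitate of 3 of the 4. Its part in these values was not tested.

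**Figure D5:**
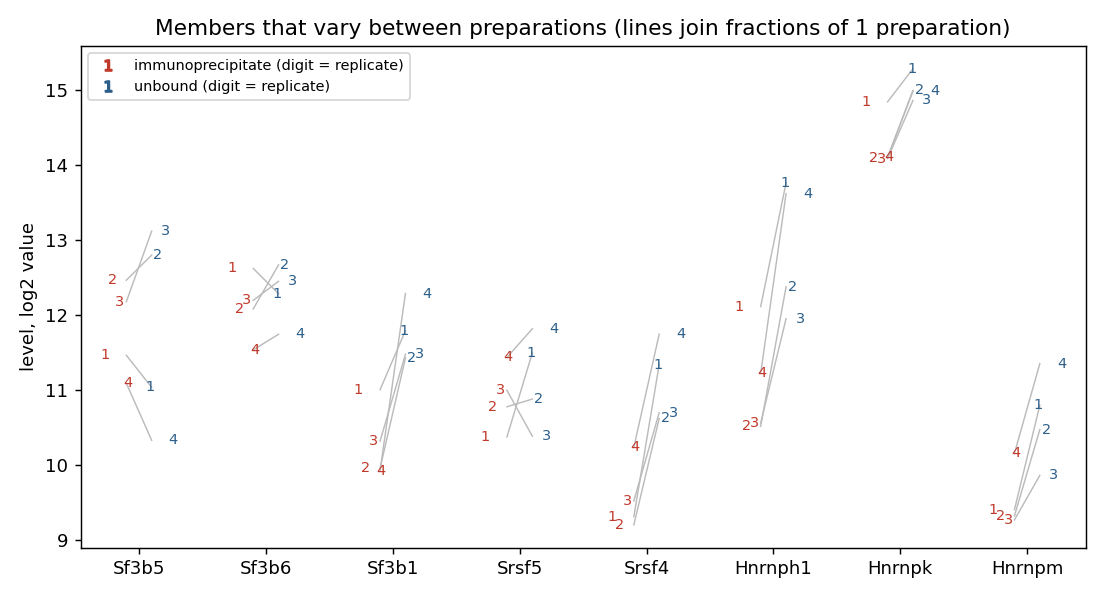
Log2 level (vertical axis) of 8 members (horizontal axis), immunoprecipitate left and unbound right, with digits for the replicate and lines that join the fractions of 1 preparation. Sf3b5 is high in replicates 2 and 3 of both fractions, and Hnrnph1 in replicates 1 and 4.

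Lists of genes that work with these families differed in their medians. Their counts stand beside 4.74% called higher and 44.2% called lower of all tested genes. Of 33 tested genes of the tri-snRNP and the LSm rings, which ride with the Snrp proteins, 0 were called higher and 8 lower by limma, with 4 higher at an unadjusted p below 0.05, and a median log2 fold change of -0.19, beside -0.85 for all genes. Prpf39, a U1 partner, fell 5.47-fold and Lsm11, a protein of the U7 particle, 4.57-fold. Of 12 genes of snRNP assembly 0 were higher and 2 lower by limma, with 0 higher at an unadjusted p below 0.05. The lower were the cap-methylating enzyme Tgs1 at 3.93-fold and the SMN complex member Strap at 2.01-fold, and the list's median was -0.48. Strap missed 2-fold without any 1 of immunoprecipitate replicates 2, 3 and 4 (-0.97, -0.96 and -0.95) or unbound replicate 1 (-0.89), on the deposited scale (-0.99), after median centring (-0.20) or quantile normalization (-0.57), and as the mean of its probe sets (-0.83).

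Among 15 genes of U2AF and branch point recognition, 1 was higher and 6 lower (median -0.60). U2af2, the large U2AF subunit that reads the polypyrimidine tract, had 9.12, 9.78, 9.60 and 9.40 in the immunoprecipitates, against 8.38, 8.64, 8.48 and 8.23 in the unbound fractions. It was 2.06-fold higher (limma adjusted p = 0.00241), but under 2-fold without immunoprecipitate replicate 2 (0.94) or unbound replicate 4 (0.98), and it gave -0.92 on the poly-A controls. The helicases Ddx46 and Dhx15 fell 2.73- and 2.21-fold. Both missed the call after median centring (-0.64 and -0.34) and quantile normalization (-0.53 and -0.81), and Ddx46 also with its probe sets averaged (-0.46, with a limma adjusted p of 0.0988).

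Of 20 genes of the catalytic steps and the Prp19 complex 1 was higher and 8 lower (median -0.74). Bcas2, a subunit of that complex, lay between 12.92 and 13.86 in the immunoprecipitates and between 11.58 and 12.26 in the unbound fractions, or 2.74-fold higher (limma adjusted p = 0.00049). It gave -0.51 on the poly-A controls. The second-step factor Slu7 fell 3.91-fold and Snw1 3.72-fold.

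The lists closest to the SR proteins and hnRNPs had medians below that of all genes. Of 27 SR kinases, SR-related and exon junction genes 0 were higher and 19 lower by limma, with 0 higher at an unadjusted p below 0.05 (median -1.27). Pnn, an SR-related protein of nuclear speckles, had 8.39, 8.02, 8.09 and 8.01 in the immunoprecipitates and 11.22, 10.64, 10.78 and 11.15 in the unbound fractions, or 7.06-fold lower (limma adjusted p = 5.94e-06). Scaf11 fell 4.52-fold.

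Of 39 other nuclear RNA-binding proteins and neuronal splicing regulators 1 was higher and 23 lower (median -1.25). Celf6, a brain member of the CELF splicing regulators, had 11.29, 11.32, 11.64 and 12.06 in the immunoprecipitates against 9.44, 9.33, 9.63 and 10.31 in the unbound fractions, or 3.73-fold higher (limma adjusted p = 0.000191), though -0.065 on the poly-A controls. Rbfox1, a neuronal regulator that binds GCAUG, had 11.59, 11.13, 10.38 and 8.95 against 13.34, 13.80, 13.59 and 13.30, or 7.97-fold lower (limma adjusted p = 0.000373). Tia1, a U1-recruiting protein, fell 9.31-fold.

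The fold went with gene length. The Spearman correlation of log2 fold change with genomic length was -0.40 over the 74 tested member genes and -0.36 over 10375 tested genes, given as a description since genes share arrays and are not replicates. The 24 shortest member genes, up to 9495 bases, had a median of -0.56 with 1 higher and 8 lower, and the 24 longest, from 23196 bases, -1.23 with 0 higher and 16 lower. Snrp genes had the shortest median length, 8366 bases, and all tested genes 25691. SR genes were nearly as short, at 8986 bases. Their median log2 fold change by gene was -0.84, beside 0.32 for Snrp genes and -0.85 for all genes. 22 of the 82 member genes overlap a protein-coding gene, and reads of an overlapping transcript by a probe set were not tested.

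Markers of other cells of the tissue moved with the same contrast. All 10 astrocyte markers were called lower, with a mean level per array of 7.13 to 8.60 in the immunoprecipitates and 10.51 to 10.69 in the unbound fractions. All 9 tested oligodendrocyte markers were lower (9.40 to 10.96 against 12.38 to 12.81). So were the 7 tested microglial markers of 8 listed and the 3 tested endothelial and mural markers of 7 listed. The mean levels of these tested markers on immunoprecipitate replicate 4, 5.03 and 4.59, lay under the minimum for testing. Of 9 pan-neuronal genes 1 was higher and 5 lower. The splicing genes are used by all these cells, and the part of cell type in their folds was not tested.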

How the data were processed

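Log2 expression values per probe set were deposited by the authors for 8 arrays. Per the submitters' processing notes the tool was GCRMA (version not given in the sources used), run within each group per the design text. The replicate labels state separate biological replicates.

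Each group was then shifted by a constant that equalised the means of 18 biotinylated controls (deposited difference 0.02). Outside 64 control probe sets, 17865 reached a linear 50 on at least 4 arrays and were fitted with limma 3.58.1 in R 4.3.3 (lmFit, eBayes with a trend, no block). Calls needed a Benjamini-Hochberg adjusted p below 0.05 over all tested and 2-fold. Within-gene differences were fitted over 5969 pairs without a trend. A fold is given as at least where arrays of the fainter group were under 50: its values are raised to 50. The fits were tested on simulated data. Precision is limited by the number of arrays.

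Of all probe sets 34958 had 1 gene symbol, 932 several and 9211 none. Members and lists were chosen with earlier results of these data known, and the poly-A scale was taken from an earlier analysis of these arrays, which added it after seeing the data. Named by rule were, per family, up to 4 called genes in each direction with the largest change and the 2 of highest mean, every gene with a called within-gene pair, the probe sets nearest to 2-fold, and up to 2 called genes in each direction of each further list. Planned protein features were not computed, as no protein table was used here.

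The labels join the fractions of 1 preparation by number. Deviations from group means correlated at 0.44, 0.33, 0.25 and 0.59 between same-numbered arrays, while immunoprecipitate 2 and unbound 3 gave 0.26. A fit with the replicate block was an alternative. The others were no shift, median centring, quantile normalization, poly-A controls, other filters, variance priors and fold thresholds, gene means over probe sets, and each array left out in turn. Added after seeing the data were the filter on all 8 arrays and the fit without both arrays of replicate 4. Plots used matplotlib 3.10.9 and Python 3.11.15.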

Additional observations from a re-analysis of the deposited data

Results flagged for a closer look

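Of 116 groups of 4 arrays examined for the named genes, 9 had 1 array far from the other 3, where chance gives about 1 in 20 groups. Immunoprecipitate replicate 1 stood high for Hnrnpk at 14.85 (others 14.09 to 14.11), for Tia1 at 8.22 (6.21 to 6.42) and for Strap at 11.92 (11.31 to 11.36). Unbound replicate 1 stood high for Strap at 12.85 (12.33 to 12.42) and for Srsf10 at 11.67 (10.68 to 10.70). Immunoprecipitate replicate 4 stood high for Lsm11 at 6.30 (5.80 to 5.87). Unbound replicate 4 stood high for Rbm15b at 5.97 (4.99 to 5.13) and for Bcas2 at 12.26 (11.58 to 11.69). Unbound replicate 3 stood low for Snrpb2 at 9.66 (10.35 to 10.44).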

How the results depend on the processing

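The counts depended on the scale between the fractions. Median centring moved the median of all tested probe sets by 0.81, quantile normalization by 0.84 and the poly-A controls by -1.97. After median centring 17 member probe sets were higher and 32 lower (SR proteins 1 and 3, hnRNPs 3 and 14, SF3 1 and 0, Snrp 7 and 0, Rbm 5 and 15), and 10 genes were higher and 7 lower. After quantile normalization these were 12 and 33 (SR 2 and 2, hnRNPs 2 and 18, SF3 1 and 0, Snrp 4 and 0, Rbm 3 and 13), and 5 and 12 genes. On the poly-A controls 0 were higher and 164 lower (SR 29, hnRNPs 52, SF3 23, Snrp 15), with 0 and 70 genes. There Snrpe (-1.61), Snrpg (-1.68), Snrpb2 (-1.55), Snrpd3 (-1.61), Rbm15b (-0.32), Rbm11 (-0.61), Rbm45 (-0.83), Rbm8a (-1.42), Rbm17 (-1.78), U2af2 (-0.92), Bcas2 (-0.51), Celf6 (-0.065) and Hnrnpab 1426114_at (-0.83) changed sign. So did Snrpf (-0.996), which was named after its values were seen. A constant per group does not alter the order of probe sets.

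At 4-fold 0 probe sets were higher and 26 lower (SR 3, hnRNPs 11, SF3 0, Snrp 0, Rbm 12), and 0 and 3 genes. Without a fold threshold 9 were higher (SR 1, Snrp 3), 7 Snrp were lower and 7 genes higher. With the minimum on all 8 arrays 1 was higher, 0 Rbm were higher and 17 lower, 0 genes were higher and 9 pairs were called. A minimum of 100 gave 2 higher, 1 of them Rbm, and 1 gene. With no filter 43 pairs were called. With both arrays of replicate 4 left out 0 hnRNP probe sets were higher.

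Leaving out 1 array gave 3 to 5 higher (SR 0, hnRNPs 0 to 1, SF3 0, Snrp 0 to 1, Rbm 3) and 85 to 98 lower (SR 13 to 17, hnRNPs 29 to 36, SF3 8 to 11, Snrp 2 to 5, Rbm 30 to 34), with 3 to 4 genes higher, 35 to 39 lower and 18 to 24 pairs. Of 1548 values of 80 single results under 22 alternatives, 1376 kept direction and side of the threshold, 119 were no longer called, 40 became called and 13 changed sign. The replicate block gave 4 higher, 91 lower (Rbm 33) and 21 pairs. Among the 80 single results it changed 1 call, that of the Srsf2 pair of 1452439_s_at (limma adjusted p = 0.0524). The cause of these changes was not tested. Signal over background limits the probe sets under 50 on all arrays of 1 fraction.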
